A study of Mus musculus with 12 samples.

Results

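The Runx1 locus was described from every deposited peak that overlapped a 250 kb interval of mouse chromosome 16 (chr16:92590000-92840000, build mm9), which holds Runx1 on the minus strand. The interval held 136 peaks of the 353805 in 11 peak lists. Runx1 encodes a DNA-binding transcription factor that is required for the first definitive blood stem and progenitor cells to form, and it also acts later in megakaryocytes, lymphocytes and granulocytes. The gene is read from a distal promoter (also called P1) and, far downstream, from a proximal promoter (P2), which give proteins with different N-terminal ends. The stretch between them holds enhancers, among them a well-studied one active in blood-forming cells. The mm9 position of that enhancer is not given in the sources used here, so no region below is called by its name.

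All samples came from C57BL/6 embryos at embryonic day 14.5, with no genetic change or treatment named. Whole fetal liver, at this age the main blood-forming organ and made up largely of red cell precursors beside hepatocytes, gave ChIP-seq libraries for H3K4me3 (2), H3K27ac (2), H3K4me2 (2) and H3K4me1 (3). ATAC-seq, in which a transposase inserts sequencing adapters into accessible DNA, was done in 2 libraries of proerythroblasts, an early stage of the red cell lineage. Trimethylation of histone H3 at lysine 4 (H3K4me3) is known from promoters, monomethylation of the same residue (H3K4me1) from enhancers and the shoulders of promoters, and dimethylation (H3K4me2) from either kind of element, while acetylation at lysine 27 (H3K27ac) goes with activity. No input list was used here, and nothing in the labels says that replicates came from separate embryos or litters, so the spread between libraries may be technical. The labels name different suppliers for the H3K4me2 antibody in different fields, and the protocol attached to the proerythroblasts describes ChIP, so how these cells were isolated is not given in the sources used here.

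Each peak carries the authors' fold enrichment over the background of the peak caller. For a broad ChIP peak this is 1 value for its whole length, and its size cannot be compared as a level between antibodies. Read counts per peak were not part of the lists, and the depth of each library is unknown. In a mixed tissue such as whole fetal liver, a mark in few cells and a weaker mark in many cells cannot be told apart. As a check of the labels, each of the 11 lists had 5 to 12 peaks in a window around the beta-globin genes, expressed in red cell precursors. A window around Alb and Afp, hepatocyte genes, had 2 peaks in each H3K4me3 list, 1 in the first H3K27ac list, 1 in the first H3K4me2 list, and 0 in the other 7 lists. Both windows were placed from general knowledge and not from a file.

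The positions of the promoters rest on the interval's own description for the distal one and on general knowledge for the proximal one. Independent of the coordinates, RefSeq places the starts of the distal and proximal Runx1 transcripts 128745 bp apart on GRCm38.p6. In mm9, the open chromatin sites taken for the distal and proximal promoters had ATAC summits 128694 bp apart in replicate 1 and 128709 bp apart in replicate 2. The sequences of both promoters are shown because the marks and the accessibility at them, described below, differ, and because the sequences differ in base composition. Each is the 250 bases before the RefSeq start (GRCm38.p6, minus strand, chr16:92826075-92826324 for the distal and chr16:92697330-92697579 for the proximal promoter; these positions are not on the mm9 scale used for the peaks). Capitals mark CCAAT on either strand (ATTGG on the strand shown) and the E-box CACGTG.
Runx1 distal promoter: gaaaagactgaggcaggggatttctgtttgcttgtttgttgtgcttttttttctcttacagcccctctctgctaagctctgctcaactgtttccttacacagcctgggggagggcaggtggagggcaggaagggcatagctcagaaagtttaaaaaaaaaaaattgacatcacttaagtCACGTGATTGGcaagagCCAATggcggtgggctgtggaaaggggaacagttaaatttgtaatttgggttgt
Runx1 proximal promoter: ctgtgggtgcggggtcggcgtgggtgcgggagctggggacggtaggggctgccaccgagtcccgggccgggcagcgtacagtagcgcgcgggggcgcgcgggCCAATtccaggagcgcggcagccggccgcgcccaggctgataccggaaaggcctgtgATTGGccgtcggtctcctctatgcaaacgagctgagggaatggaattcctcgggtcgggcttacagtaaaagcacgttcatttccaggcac

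Over the window of these 250 bases and the next 50, the distal promoter had 2 CpG dinucleotides and 45% G and C, and the proximal promoter had 35 CpG dinucleotides and 69% G and C. Of 32851 RefSeq promoters of the same length, 14.1% had fewer CpG dinucleotides than the distal promoter and 93.0% had fewer than the proximal one; the median promoter had 7 CpG dinucleotides and 52.7% G and C. The distal promoter was thus CpG-poor and the proximal one CpG-rich relative to this table. CCAAT, bound by NF-Y, was found at -54 (sense) and -65 (antisense) in the distal promoter and at -148 (sense) and -91 (antisense) in the proximal one, counted from the start; 37.4% of all promoters held it on either strand. CACGTG, an E-box, was found at -71 in the distal promoter, where it directly adjoins the antisense CCAAT without overlapping it, and in 7.15% of all promoters. TGTGGT, the core letters bound by RUNX proteins, was found 2 times in the distal promoter, on the antisense strand 29 and 37 bases after the start, not in the proximal one, and in 16.8% of all promoters. CACCC, the core letters bound by KLF proteins, was found 2 times in the proximal promoter, at -246 and -229 (both antisense), not in the distal one, and in 57.5% of all promoters. AGATAA, bound by GATA factors, and TATAAA, the TATA box, were in neither promoter window, against 11.2% and 13.6% of all promoters. Both strands were searched for all 6 motifs, and a match of letters is a description and not a binding site.

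The marks lay almost wholly in the 5′ part of the gene, around the distal promoter, around the proximal promoter and in the 128.7 kb between their open sites. The 3′ part of the gene below the proximal promoter held 1 separate H3K4me1 region with a peak of every H3K4me1 library (chr16:92661997-92664077, mean fold enrichment 2.42 ± 0.24, SD, n = 3). It also held 1 H3K27ac peak in replicate 1 alone (chr16:92608638-92609544, fold enrichment 2.29). H3K4me1 replicate 2 had a further peak centred just below the 5 kb proximal window (chr16:92691420-92692243). Merged over libraries, that peak belongs to the H3K4me1 region of the proximal promoter. No list had a peak centred in the flanks of the gene within the interval. Beyond the interval, the next peak lay 90.5 to 114 kb away on the 3′ side and 16.9 to 289 kb away on the 5′ side, depending on the library.

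**Figure D1:**
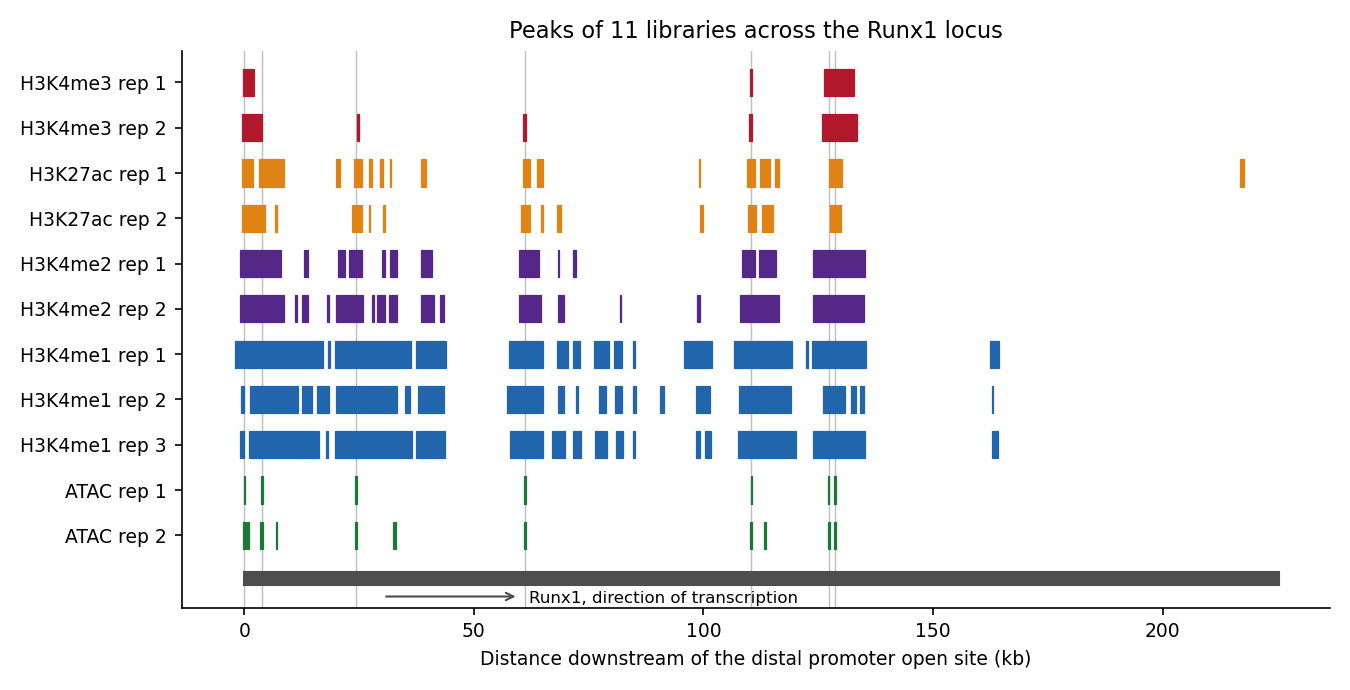
Peaks of each of the 11 libraries (rows) across the Runx1 locus, drawn to scale against the distance downstream of the distal promoter open site in kb; each box is 1 peak, outlined with a thin line of fixed width, grey vertical lines mark the 7 open sites found in both ATAC libraries, and the dark bar is the approximate extent of Runx1. Nearly all peaks lie between the promoters or at them, and the 3′ part of the gene is nearly without peaks.

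H3K4me3, the promoter mark, had 3 peaks in the locus in replicate 1 and 5 in replicate 2. They covered 9.54 and 13.8 kb of the locus. Each library had a peak at the distal promoter, a peak at the proximal promoter and a short peak between them, 110 kb downstream of the distal open site (chr16:92715735-92716558, fold enrichment 2.81 in replicate 1 and 3.09 in replicate 2). The remaining 2 peaks were found in replicate 2 alone, at chr16:92801482-92801905 (fold enrichment 3.48) and chr16:92765120-92765594 (3.83). Both touched an open site of the intervening stretch.

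At the distal promoter the H3K4me3 peak was narrower than at the proximal promoter and had a higher fold enrichment over its whole length. Its fold enrichment was 11.6 in replicate 1 and 11.4 in replicate 2 at the distal promoter, and 7.18 and 8.39 at the proximal promoter, so the values of both libraries were higher at the distal one. The log2 ratio of distal to proximal fold enrichment was 0.57 ± 0.18 (SD, n = 2). The distal peaks were 2.35 and 4.43 kb wide, against 6.59 and 7.66 kb for the proximal peaks, and again the ranges did not overlap. Merged over both libraries, the distal region was chr16:92822452-92826885, wider than 92.0% of the 13600 consensus H3K4me3 regions of the genome (merged stretches with a peak of every library). The proximal region was chr16:92692905-92700566 and wider than 98.8% of them. By fold enrichment the distal region exceeded 74.4% of consensus regions and the proximal region 48.8%. The promoter contrasts of all marks are given as values and were not tested.

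H3K27ac, the mark of active promoters and enhancers, had 16 peaks in replicate 1 and 12 in replicate 2, covering 24.5 and 19.1 kb. At the distal promoter its peak had fold enrichments of 3.77 and 2.78, and at the proximal promoter of 2.66 and 2.26. Each library was higher at the distal promoter (log2 ratio 0.40 ± 0.14, SD, n = 2), while the distal value of replicate 2 lay only a little above the proximal value of replicate 1. The distal acetylated region was the widest of the locus, 9.25 kb (chr16:92817673-92826925), wider than 93.8% of the 18238 consensus H3K27ac regions, with 1129 regions of the genome at least as wide. It was made of 2 peaks in each library whose gaps fell at different places, the widest single peak of the locus being 5.57 kb in replicate 1 and 5.01 kb in replicate 2. At the proximal promoter the H3K27ac region was 2.73 kb wide (chr16:92696272-92698999). It covered 35.6% (replicate 1) and 32.0% (replicate 2) of the proximal H3K4me3 region, whereas at the distal promoter H3K27ac covered 70.7% and 100% of the H3K4me3 region.

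H3K4me2 spanned both promoters whole and had the log2 ratio nearest to 0 of the 4 marks. Its fold enrichment was 5.98 and 4.93 at the distal promoter, against 6.83 and 5.32 at the proximal promoter. Both libraries were thus lower at the distal promoter (log2 ratio -0.15 ± 0.06, SD, n = 2), by less than the libraries differed from each other. The distal peaks were 9.05 and 9.66 kb wide and the proximal peaks 11.4 and 11.1 kb. The consensus regions, chr16:92817678-92827336 at the distal and chr16:92691198-92702623 at the proximal promoter, contained 100% of the H3K4me3 region there in each H3K4me2 library.

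H3K4me1 showed a gap at the distal promoter in 2 of its 3 libraries. Within the stretch under H3K4me3 peaks of both replicates at the distal promoter (chr16:92824311-92826664), H3K4me1 peaks covered 100%, 49.5% and 57.3% in replicates 1, 2 and 3. The uncovered part was 1188 bp in replicate 2 (chr16:92825213-92826400) and 1004 bp in replicate 3 (chr16:92825386-92826389), and in both libraries it ran from inside the distal open site to its downstream side. In replicate 1 a single peak of 19.2 kb ran over it. At the proximal promoter the same measure was 100%, 81.0% and 100%, and the 1254 bp gap of replicate 2 lay off the open sites. The H3K4me1 peak at the open site had fold enrichments of 3.10, 2.52 and 2.84 at the distal promoter, against 2.51, 1.99 and 2.16 at the proximal promoter. Each of the 3 libraries was higher at the distal promoter (log2 ratio 0.35 ± 0.04, SD, n = 3), although the lowest distal value, 2.52, barely exceeded the highest proximal value, 2.51. The peaks behind these values differed in width within each library. They were 19.2, 0.771 and 0.904 kb wide at the distal promoter, against 11.6, 4.70 and 11.3 kb at the proximal promoter, in replicates 1, 2 and 3. In replicates 2 and 3 the distal peak overlapped only the upstream part of the open site, beside the gap. In replicate 2 another peak of the proximal region, off the open sites (chr16:92691420-92692243), had 2.39, nearer to the distal 2.52. The size and spread of the log2 ratio thus depend on which peak is taken at each promoter.

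**Figure D2:**
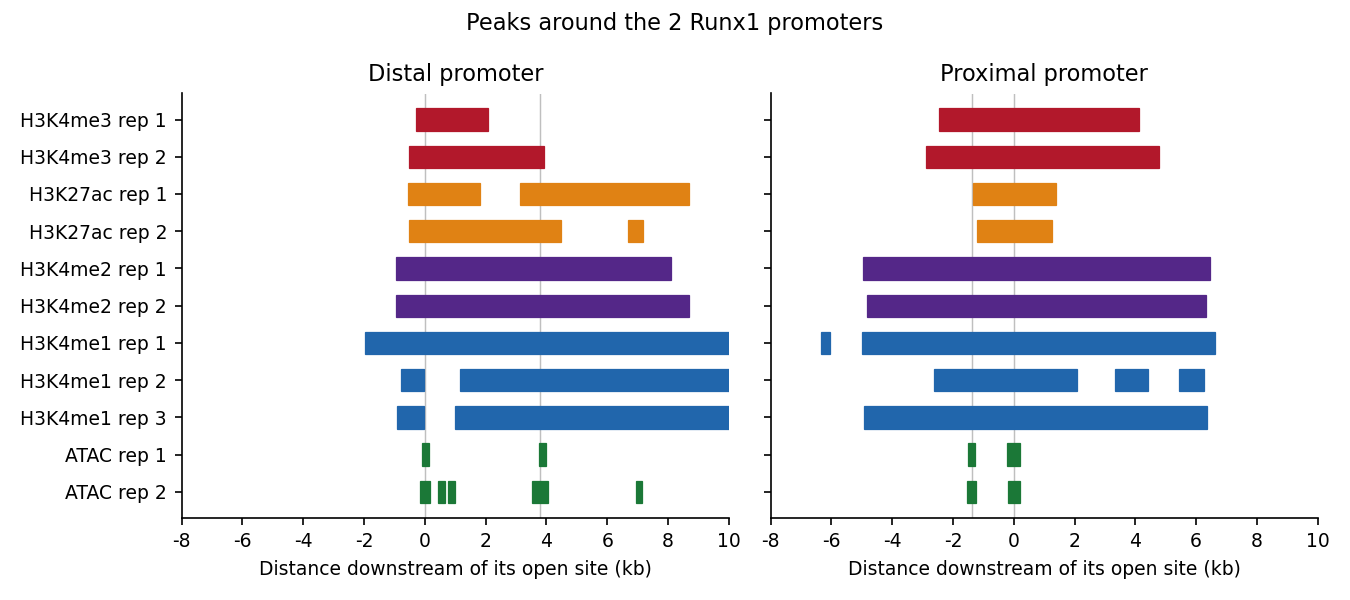
Peaks of the 11 libraries around the distal promoter (left) and the proximal promoter (right), against the distance downstream of each promoter's open site in kb; grey lines mark open sites of both ATAC libraries. H3K4me3 is narrower at the distal promoter, H3K27ac is narrower at the proximal promoter when its whole region is counted, and H3K4me1 replicates 2 and 3 leave a gap at the distal promoter.

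In proerythroblasts the distal promoter was less accessible than the proximal one. The ATAC peak of the distal promoter (chr16:92826201-92826542) had fold enrichments of 3.87 and 4.24, and that of the proximal promoter (chr16:92697461-92697874) of 5.98 and 7.46. The ranges did not overlap, and the log2 ratio of distal to proximal was -0.72 ± 0.13 (SD, n = 2). Within their lists, the distal site exceeded 9.90% and 19.0% of ATAC peaks and the proximal site 45.7% and 66.4%. In H3K4me3, the distal peak exceeded 83.4% and 73.6% of each list and the proximal peak 50.9% and 58.7%. The H3K4me3 values come from whole fetal liver and the ATAC values from proerythroblasts, so mark and cell population cannot be told apart in this contrast.

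**Figure D3:**
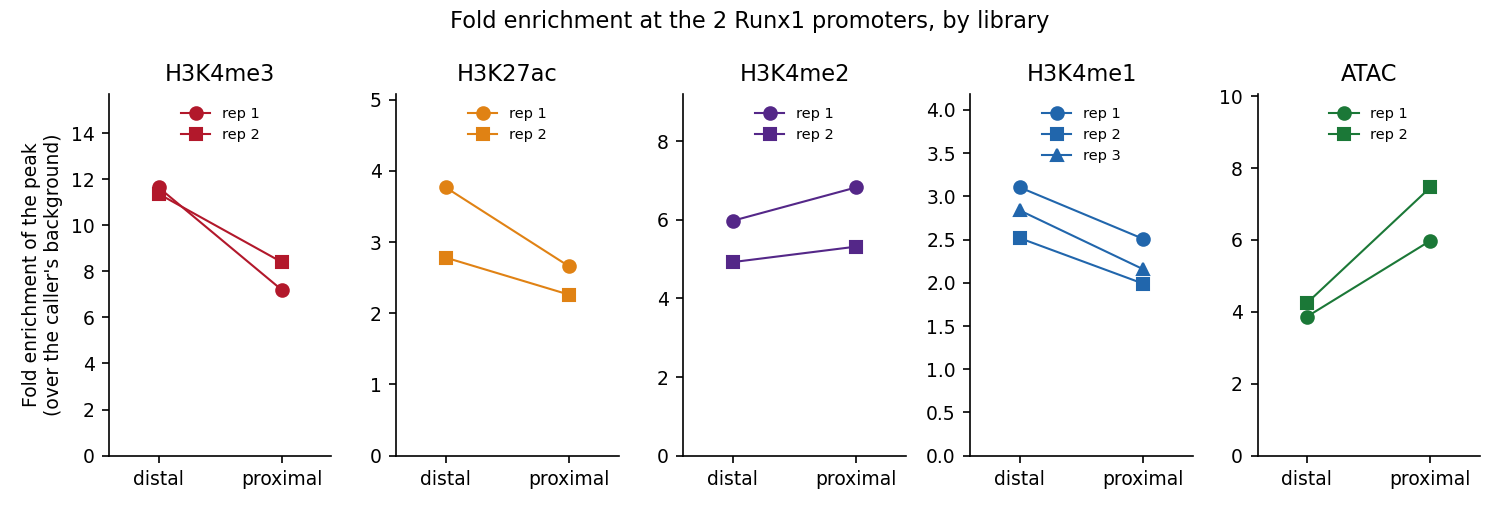
The authors' fold enrichment (y axis, from 0, a separate scale for each panel) of the peak at the distal and at the proximal promoter open site; each line joins the values of 1 library. The lines go down towards the proximal promoter in H3K4me3, H3K27ac and H3K4me1 (7 libraries) and up in H3K4me2 and ATAC (4 libraries).

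Open chromatin sites found in both ATAC libraries numbered 7 in the locus, of 16271 in the genome. In order along transcription, 2 lay at the distal promoter, 3 in the stretch between the promoters and 2 at the proximal promoter. The second distal site (chr16:92822310-92822854) lay 3.79 kb downstream of the first and had fold enrichments of 4.02 and 4.17. The second proximal site (chr16:92698895-92699200) lay 1.38 kb upstream of the first, with 4.29 and 5.51. Summits of the 2 libraries were 2 to 59 bp apart at the 7 sites.

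The open site of highest ATAC fold enrichment in the locus was in neither promoter. It lay 24.3 kb downstream of the distal promoter open site (chr16:92801783-92802291) and had fold enrichments of 6.69 and 11.1, higher than 53.6% and 91.3% of the peaks of replicate 1 and of replicate 2. It was the highest of the locus in each library. The site 61.1 kb downstream (chr16:92765028-92765558) had 4.80 and 9.28. The site 110 kb downstream, 18.4 kb upstream of the proximal promoter site (chr16:92715785-92716272), had 5.02 and 6.68. Replicate 2 was higher than replicate 1 at all 7 sites. The median fold enrichment of its whole list, 5.95, was below that of replicate 1, 6.36. These medians are over lists of unlike length, 28980 and 18441 peaks, so they are no benchmark for sites found in both libraries.

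Replicate 2 had 6 more sites, with fold enrichments of 3.06 to 4.20. Of its 13 peaks, 6 had no replicate 1 peak, against a background of 42.4% over all 28980 peaks of that list, so this share is close to the background. They were chr16:92825723-92825938 and chr16:92825373-92825610, inside the distal H3K4me3 region, chr16:92819239-92819438, in the distal acetylated region, chr16:92793794-92794017 and chr16:92793243-92793472, 32.5 and 33.0 kb downstream, and chr16:92712748-92713113, 113 kb downstream. When each ATAC list was held to the same number of strongest peaks, 5 sites were left, and both sites of the distal promoter were lost.

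**Figure D4:**
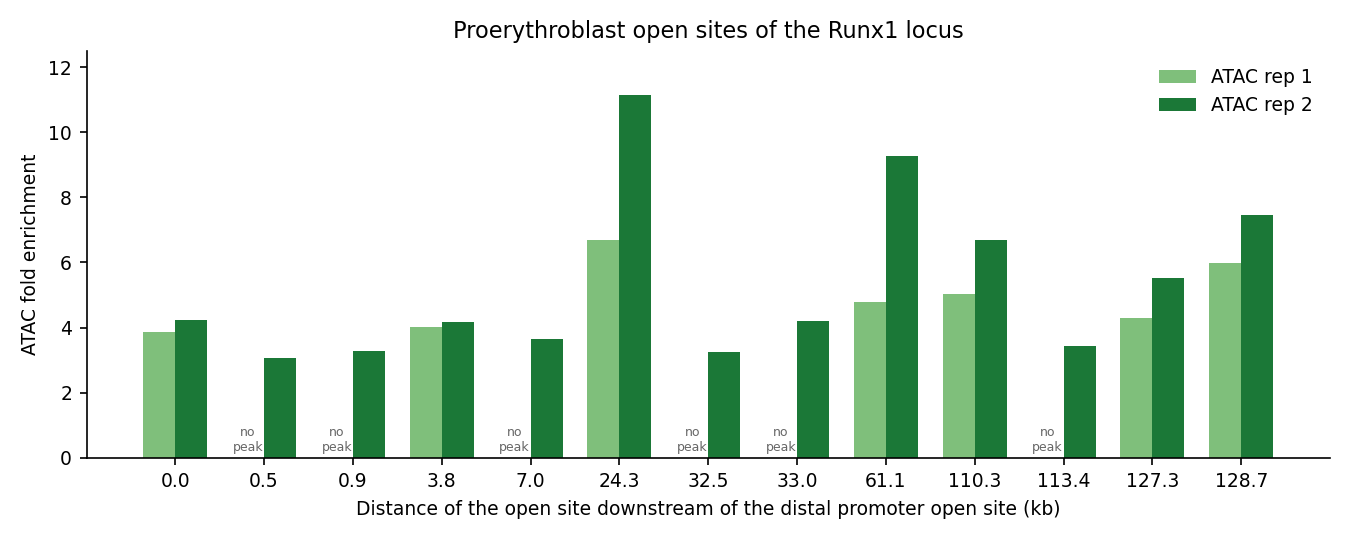
ATAC fold enrichment (y axis, from 0) of the 13 open sites of the locus, ordered by distance downstream of the distal promoter open site in kb (spacing not to scale), in replicate 1 (light) and replicate 2 (dark); "no peak" marks sites that replicate 1 lacks. The site at 24.3 kb is highest in both libraries, and the 6 sites of replicate 2 alone are at 4.20 or lower.

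All 7 open sites lay on consensus regions of H3K27ac, H3K4me2 and H3K4me1, and 5 lay on H3K4me3. Over the genome, the share of open sites was 75.8% for H3K27ac, 95.6% for H3K4me2, 85.5% for H3K4me1 and 75.6% for H3K4me3. All 4 marks were present at 5 of the 7 sites, against a background of 57.3%. With 7 sites these counts are near the background and are read as a description. The 2 sites without a consensus H3K4me3 region were those at 24.3 and 61.1 kb, where replicate 2 alone had a short H3K4me3 peak. A peak of every one of the 9 ChIP libraries was present at 3 sites, namely the first distal site, the site at 110 kb and the first proximal site. The second distal site lacked H3K4me3 in replicate 1, and the second proximal site lacked H3K27ac in replicate 2. Of the 6 sites of replicate 2 alone, 2 lay on H3K4me3, 4 on H3K27ac, and all 6 on H3K4me2 and H3K4me1.

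Between the promoters, H3K27ac formed 8 consensus regions, which gathered around the 3 open sites. The group nearest the distal promoter held 3 regions between 24.6 and 30.2 kb, led by chr16:92800672-92802798 at the open site (fold enrichment 2.87 and 3.12); the other 2 were chr16:92798623-92799288 (2.97 and 2.62) and chr16:92795621-92796729 (2.36 and 2.27). The middle group held chr16:92764085-92766045 at the open site (2.76 and 2.79) and chr16:92761321-92762552 (2.35 and 2.42). Next to it along the gene was an isolated region without an open site, chr16:92726388-92727303 (2.90 and 2.37). The group nearest the proximal promoter held chr16:92714939-92716982 at the open site (3.34 and 3.02) and chr16:92711306-92714137 (2.86 and 2.61). The region at the open site had the highest mean fold enrichment of its group in each of the 3 groups. In the group nearest the distal promoter this did not hold in replicate 1, where chr16:92798623-92799288 had 2.97 against 2.87. Mean fold enrichment of the 2 replicates was 3.18 at 110 kb and 3.28 at the distal promoter, the highest of the locus. The libraries differed on this order. The distal promoter was highest in replicate 1, with 3.77. In replicate 2 it had 2.78, below 3.12 at the open site nearest to it between the promoters and 3.02 at 110 kb.

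H3K27ac was the mark whose libraries were least alike here. Beside the peak in the 3′ part of the gene, replicate 1 alone had peaks at chr16:92805430-92806364, chr16:92794389-92794675, chr16:92786741-92787797 and chr16:92709979-92710844, and replicate 2 alone had a peak at chr16:92757363-92758248. These 6 peaks had fold enrichments of 2.16 to 2.72. Bases under peaks of both libraries made up 0.461 of the bases under either in the locus, against 0.652 over the genome. The same index was 0.690 in the locus and 0.734 in the genome for H3K4me3, 0.772 and 0.781 for H3K4me2, and 0.489 and 0.577 for ATAC. Between pairs of H3K4me1 libraries it was 0.725 to 0.849 in the locus, against 0.599 to 0.689 in the genome, so only H3K4me1 libraries overlapped more here than elsewhere. The difference was not tested.

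H3K4me2 and H3K4me1 covered more of the stretch between the promoters than H3K27ac did. Over the whole locus, both promoters included, H3K4me2 peaks covered 42.1 and 52.4 kb in replicates 1 and 2, and consensus regions numbered 10. Its widest region between the promoters, chr16:92709885-92718497, was 8.61 kb wide and held the open site at 110 kb (fold enrichment 5.62 ± 1.64, SD, n = 2). The regions at the open sites at 24.3 and 61.1 kb were chr16:92800421-92806482 (5.37 ± 1.06) and chr16:92761759-92766580 (5.08 ± 0.26). The remaining 5 regions held no open site of both libraries and had means of 2.23 to 3.02, below every region with an open site. Peaks of 1 library alone numbered 1 in replicate 1 (chr16:92754108-92754694) and 6 in replicate 2 (chr16:92814821-92815242, chr16:92808002-92808302, chr16:92798143-92798534, chr16:92782945-92783698, chr16:92744252-92744608 and chr16:92727023-92727876). Their fold enrichments were 2.13 to 2.48.

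H3K4me1 peaks covered 92.4, 71.5 and 83.5 kb of the whole locus in replicates 1, 2 and 3, more than any other mark. Its consensus regions numbered 13, both promoters included. Its widest region reached from the distal promoter into the gene (chr16:92807706-92828347, 20.6 kb, fold enrichment 2.82 ± 0.29, SD, n = 3). The next were chr16:92789882-92806694 (16.8 kb, 3.15 ± 0.41), with the open site at 24.3 kb, and chr16:92706176-92719656 (13.5 kb, 3.19 ± 0.35), with the open site at 110 kb. The highest mean was that of chr16:92761258-92769148 at the open site at 61.1 kb (3.45 ± 0.34). At the proximal promoter the region chr16:92691037-92702662 had 2.35 ± 0.18, lower than each of these in every library. Only 2 H3K4me1 peaks were of 1 library alone, chr16:92703706-92703997 in replicate 1 and chr16:92734913-92735892 in replicate 2. In all, H3K4me1 covered 60.5%, 50.1% and 55.7% of the stretch between the promoter windows (5 kb on each side of a promoter), against 0.5% and 1.45% for H3K4me3, 13.6% and 9.75% for H3K27ac, and 21.0% and 29.7% for H3K4me2.

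A −log10 q of at least 5 was reached by 3 of 16 and 3 of 12 H3K27ac peaks, and by 4 of 15, 2 of 20 and 5 of 16 H3K4me1 peaks of the locus. Over the whole lists, the share was 31.3% and 35.7% for H3K27ac, and 27.1%, 13.9% and 24.5% for H3K4me1. With so few peaks, the counts of the locus are near this background and are read as a description. With weaker peaks left out, 2 consensus H3K27ac regions were left, and 3 open sites (both at the distal promoter and the one at 110 kb) still had one. H3K4me1 then kept 2 consensus regions, on the open sites at 61.1 and 110 kb, and none on the open sites of either promoter or at 24.3 kb. Its −log10 q at the distal promoter was 7.74, 4.13 and 7.12 in replicates 1, 2 and 3. At the proximal promoter it was 4.26, 1.96 and 2.94. The −log10 q of H3K4me3 at the promoters was far higher, 52.9 and 70.7 at the distal and 23.1 and 36.2 at the proximal one.

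Every mark and the open sites covered a larger share of the Runx1 locus than of the rest of the genome, and H3K4me1 had the largest ratio. H3K4me3 covered 3.82% and 5.53% of the locus, against 1.00% and 1.30% of the rest, a ratio of 3.80 and 4.25. H3K27ac covered 9.79% and 7.63% of the locus, against 2.52% and 2.07%, a ratio of 3.88 and 3.68. H3K4me2 covered 16.8% and 20.9% of the locus, against 3.31% and 3.58%, a ratio of 5.09 and 5.85. Each ratio sets a library against its own list, and the ratios still vary with the peaks that are kept. H3K4me1 covered 37.0%, 28.6% and 33.4% of the locus, against 5.08%, 3.56% and 4.12%, a ratio of 7.27, 8.03 and 8.12. ATAC peaks covered 0.921% and 1.82% of the locus, against 0.378% and 0.554%, a ratio of 2.44 and 3.29.

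The log2 ratio averaged 1.92 ± 0.05 for H3K27ac (SD, n = 2) and 2.96 ± 0.09 for H3K4me1 (SD, n = 3). Every H3K27ac library was below every H3K4me1 library, and the difference of -1.04 was larger than the spread between replicates. The exact permutation test over libraries, two-sided by doubling the smaller one-sided share of the 10 regroupings, gave p = 0.2, the smallest value this test can give with 2 and 3 libraries. The H3K27ac and H3K4me1 libraries share no date-like tag in their titles, so the antibody and whatever the tag stands for cannot be told apart. The same holds for H3K4me1 against H3K4me2 and against H3K4me3.

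**Figure D5:**
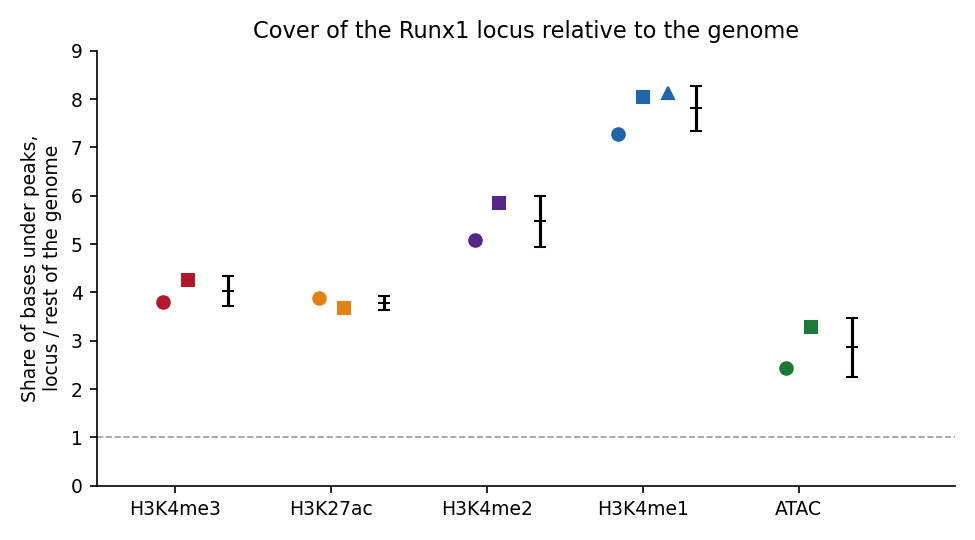
Share of bases under peaks in the Runx1 locus divided by the share in the rest of the genome (y axis, linear, from 0), for each library (points; circle, square and triangle are replicates 1, 2 and 3) with the mean and SD of each group beside them; the dashed line at 1 marks equal shares. All libraries lie above the line, and the 3 H3K4me1 libraries lie highest, between 7.27 and 8.12.

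Set against 10263 tiles of the genome of 250 kb each, the locus ranked high for the mono- and dimethyl marks and less so for the others. It held 96.1 kb under consensus H3K4me1 regions, a length that 0.633% of tiles reached, and 49.6 kb under H3K4me2, which 2.6% of tiles reached. It held 24.9 kb under H3K27ac and 12.9 kb under H3K4me3, which 7.66% and 6.02% of tiles reached. Its 7 open sites were reached by 6.13% of tiles. The median tile held 2.17 kb under H3K4me2 and 0 kb under each of the other 3 marks. The interval was chosen to hold a gene of known activity in blood cells, so these shares describe its place among tiles and are no test.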

How the data were processed

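Each library has its own peak list, as the authors deposited it. Per the submitters' processing notes, MACS2, SAMtools, Bowtie 1.0.1, Trimmomatic 0.32 and build mm9 were used; the sources used here give no settings and no control for the peak calls. For each peak the authors deposited a score, a fold enrichment ratio relative to background, a −log10 p-value and a −log10 q-value. Multiplying the −log10 q by 10 and dropping the decimals gave the deposited score for 353782 of 353805 peaks. Summits are given for ATAC peaks (narrow format) and not for ChIP peaks (broad format). Without read counts, depth and counting error are unknown.

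Computed here with Python 3.11.15 and NumPy 2.4.6: bases under peaks (clipped to the locus), consensus regions (merged stretches with a peak of every library of a group), overlap by at least 1 bp, the share of bases under both among bases under either library, and an exact permutation test over libraries. Autosomes, X and Y entered (a span of 2568.43 Mb), and 7 peaks on other chromosomes were set aside. Coordinates count from 1. The promoter contrast compares the peak at each promoter's open site within a library. The steps were tested on simulated peaks.

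The locus, its windows and the comparisons were chosen with earlier results of these data known. Regions named were every consensus region of H3K4me3, H3K27ac and ATAC; of H3K4me1 and H3K4me2 the 3 widest, the 3 of highest mean fold enrichment and those at a promoter or open site; and peaks of 1 library alone where they numbered 10 or fewer. Alternatives were peaks with a −log10 q of at least 5, equal numbers of peaks per library, a peak of any library, promoter windows of 2 kb, overlap of 50% of an open site, stitching of nearby regions, chromosome 16 as the background, leaving out each replicate, and replicate pairing. Exons, introns and neighbouring genes were not placed on mm9, for which no annotation was used here. Promoter sequences come from RefSeq (GRCm38.p6), in which 2 of 32851 promoters matched Runx1.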

Additional observations from a re-analysis of the deposited data

Results flagged for a closer look

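The log2 ratio of distal to proximal promoter fold enrichment had one sign in every library of some readouts and the opposite sign in every library of others, for 6 pairs of readouts. H3K4me3 exceeded H3K4me2 by 0.72 and ATAC by 1.29 on this scale. H3K27ac exceeded H3K4me2 by 0.55 and ATAC by 1.12. H3K4me2 minus H3K4me1 was -0.50, and H3K4me1 exceeded ATAC by 1.07. These differences were not tested. The ATAC libraries are from proerythroblasts and the others from whole fetal liver, and the H3K4me2 antibody is named differently in different label fields. The H3K4me1 libraries share no date-like title tag with those of any other mark. The ChIP peaks compared also differ in width between the promoters, and each carries 1 fold enrichment for its whole length. The part of each of these in the differences was not tested.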

How the results depend on the processing

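Of 168 recomputed values, 120 stayed within the limits set for a change, 48 moved and 0 changed sign. Most of these values are lengths, counts or shares, which cannot change sign. Leaving out a replicate could not reverse the signed values either, because the libraries of each comparison all went the same way. The absence of sign changes is therefore no measure of stability. Staying within the limits does not mean unchanged: with equal numbers of peaks, 5 open sites in place of 7 counted as within them. With a −log10 q of at least 5, consensus H3K27ac covered 7.09 kb in place of 24.9 kb, H3K4me2 40.6 kb in place of 49.6 kb and H3K4me1 21.4 kb in place of 96.1 kb; open sites on H3K27ac numbered 3 and on H3K4me1 2, in place of 7 each, and the widest H3K27ac region was 5.04 kb in place of 9.25 kb. With a peak of any library, H3K27ac reached 29.8 kb, open sites numbered 13, and 9, 11, 13 and 13 of them lay on H3K4me3, H3K27ac, H3K4me2 and H3K4me1. With equal numbers of peaks, open sites on H3K4me3 numbered 2 in place of 5. With nearby regions stitched, the widest H3K27ac region was 31.0 kb and no longer the distal one. It joined the proximal promoter region, the group nearest to it and the isolated region without an open site. The distal acetylated region lay too far from its nearest neighbour to be joined.

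Without 1 replicate each, consensus H3K4me3 was 9.54 to 13.8 kb, H3K27ac 19.1 to 24.5 kb and H3K4me2 42.1 to 52.4 kb. Open sites then numbered 7 to 13, with 6 to 11 on H3K27ac, 7 to 13 on H3K4me2 and 7 to 13 on H3K4me1, the highest of these without ATAC replicate 1. The widest H3K27ac region was 5.01 to 5.57 kb, because its peaks touch only when both libraries are merged. With −log10 q in place of fold enrichment, an alternative chosen after seeing the data, the log2 promoter ratio was 1.08 for H3K4me3, 0.88 for H3K27ac, -0.31 for H3K4me2, 1.07 for H3K4me1 and -1.43 for ATAC, with the same signs as before. Of 73 other values, 20 moved.

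The difference in log2 cover ratio between H3K27ac and H3K4me1 was -1.91 with a −log10 q of at least 5, -1.21 with equal numbers of peaks, -1.08 against chromosome 16, and -1.10 to -1.01 without 1 replicate. Replicate numbers 1 and 2 occur in both groups, but nothing in the labels says that they pair libraries. With the replicate block it was -1.02 (exact sign-flip test over 2 pairs, p = 0.5, the smallest it can give). Depth is unknown, replicates are few and most H3K27ac and H3K4me1 peaks lie below that q, so an absent peak does not show an absent mark.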
